A study of Rattus norvegicus with 3 samples.

Results

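The expression of 10 markers of tubular injury and repair was compared between the kidneys of rats that drank water containing gamma-aminobutyric acid (GABA) and those of the negative control. The markers were Havcr1, Lcn2, Clu, Spp1, Timp1, Vim, Vcam1, Cdkn1a, Sox9 and Egf, and their probes were found by the RefSeq accession that the array files give for each probe. A probe was matched for 9 of the 10 markers (11 probes in all, of 30367 probes other than controls), and 8 of the 10 were bright enough to be tested among 14183 genes. The G200 group was male Sprague-Dawley rats, obtained at an age of 5 weeks, whose drinking water held GABA at 200 ppm over 3 weeks, and the negative control was rats of the same strain, sex and age without GABA. RNA of the kidney, labelled by the submitters as non-tumor region, was hybridized to 3 two-colour Agilent arrays, with the control in the green dye (Cy3) and G200 in the red dye (Cy5) on every array. The dyes were not exchanged on any array, so a dye effect of a probe and an effect of GABA cannot be told apart.

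Each value is the log2 ratio of G200 over control on 1 array, and each error is the SD over the 3 arrays. The green channels of the 3 arrays differed about as much as the spots of 1 array allow. Over 1130 probes with 5 or more spots, the median SD between array means was 0.0351, against 0.0354 expected from the spots (0.109 between single spots), and 118 probes (10.4%) differed between arrays. In the red channel the median SD between array means was 0.136, against 0.0462 expected (0.145 between single spots), and 772 probes (68.3%) differed. The control was therefore counted as 1 sample, although the labels give 3 rats per group, and the test leaves out the control's own spread. The kidney markers Slc34a1, Lrp2, Umod, Slc12a1, Slc12a3 and Aqp2 were well above background in both channels of all 3 arrays.

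A damaged tubule cell loses its transport functions and switches on genes for adhesion, matrix and secreted proteins, and surviving cells then spread, divide and redifferentiate. Havcr1 (kidney injury molecule KIM-1) and Lcn2 (the iron-siderophore carrier NGAL) are widely used indicators of acute tubular damage. Clu (clusterin, a secreted chaperone), Spp1 (osteopontin), Timp1 (an inhibitor of matrix metalloproteinases), Vim (vimentin) and Vcam1 (a leukocyte adhesion molecule) are raised in injured or incompletely repaired tubules. Cdkn1a encodes p21, which halts the cell cycle, and Sox9 marks regenerating tubule cells. Egf, made in the thick ascending limb and the distal convoluted tubule, falls in most forms of tubular injury.

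Of the 8 markers tested, Egf and Lcn2 were higher and Cdkn1a and Clu were lower in G200 (adjusted p under 0.05 in limma), and the directions of Clu and Cdkn1a were not the same in every scaling of the dyes. Clu turned with median centring, with which Cdkn1a also lost its call. Without normalization Clu passed as higher, and the plain ratio of Cdkn1a turned. These 4 of 8 stand beside 37.5% of all genes tested, since 5316 of 14183 genes passed the same threshold. That share depended on the arrays, and was 24.9%, 35.1% and 11.4% without replicates 1, 2 and 3. The share of all genes was 11.5% for higher and 25.9% for lower expression, and nothing particular to the markers is read from 2 higher and 2 lower of 8. Only Cdkn1a also met the 2-fold criterion, which 4.05% of all genes met. The median over the 8 markers was 0.14 (0.15 on replicate 1, 0.02 on replicate 2 and 0.35 on replicate 3), and the median over all genes was -0.05.

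**Figure D1:**
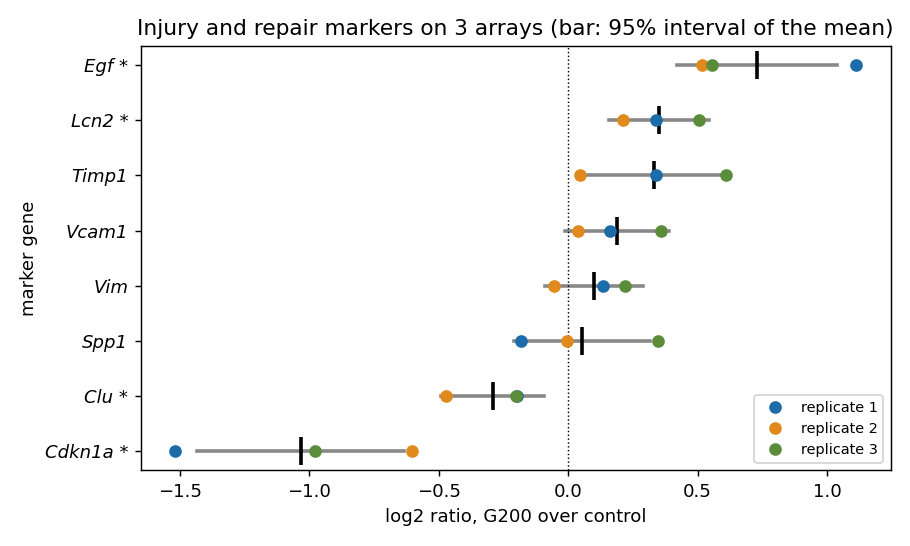
Log2 ratio of G200 over control (x axis) for the 8 markers tested (y axis). Points are the 3 arrays, the black tick is the mean, the grey bar is the 95% interval of the mean, and an asterisk marks an adjusted p under 0.05. Egf and Lcn2 lie above 0 on all 3 arrays, Cdkn1a and Clu lie below 0 on all 3, and the other 4 have an adjusted p of 0.0613 or more.

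The scaling between the dyes bears on every direction given here. Before normalization the red signal exceeded the green by a median factor of 2.43, 1.22 and 1.71 on replicates 1, 2 and 3, and this factor changed with brightness. Loess normalization removed the change with brightness, and 30.8% of the genes called were then higher. With the median of each array set to 0 in its place the share was 80%, and with no normalization 96.3%, while the median over all genes moved from -0.05 to 0.27 and 0.62. Values relative to the median of all genes are therefore given beside the markers. Median centring does not remove the change with brightness, and neither does subtracting that median.

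Egf showed the largest rise of the 8 markers in the main scaling, whereas in the ratio computed by Feature Extraction that of Lcn2 was larger (0.92 against 0.84). Its log2 ratio was 1.11 on replicate 1, 0.52 on replicate 2 and 0.56 on replicate 3, averaging 0.73 ± 0.33 (SD, n = 3 arrays, 95% interval 0.42 to 1.04, adjusted p = 0.00812 from limma), a 1.66-fold higher level. Replicate 1 stood above the other 2 arrays, and all 3 were above 0. The probe is printed 10 times on the array, and the SD between its spots was 0.0657, 0.0334 and 0.0786, smaller than the gap between replicate 1 and the others. A second probe of Egf, printed 1 time, gave 0.31, 0.20 and -0.02, with a mean of 0.16 ± 0.17. It was dim (net intensity of 54, 49.5 and 53 in the control), and the offset of 50 added to every signal lowers such a ratio, so the size of the difference between the probes is open. Relative to all genes the ratio was 0.78 after loess and 1.12 after median centring. With the mean of both probes the plain ratio was 0.45, and with the 2 forms of the methods' t-test Egf missed the threshold (adjusted p = 0.172 and 0.2005, range over the alternatives 0.00376 to 0.2005).

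Cdkn1a showed the largest fall. Its log2 ratio was -1.52 on replicate 1, -0.60 on replicate 2 and -0.98 on replicate 3, averaging -1.03 ± 0.46 (SD, n = 3 arrays, 95% interval -1.43 to -0.63, adjusted p = 0.0061 from limma), a 2.05-fold lower level. The values spread over almost 1 log2 unit, and every array was below 0. A second probe of Cdkn1a gave -0.59, -0.39 and -0.54, with a mean of -0.51 ± 0.11, the same direction at a smaller size. Each of these probes is printed 1 time on the array, so no SD between spots can be given. Relative to all genes the ratio of Cdkn1a was -0.98 after loess and -0.52 after median centring, with which it no longer passed the test (adjusted p = 0.126 from limma, range over the alternatives 0.00141 to 0.649), and without any normalization the plain ratio was 0.10. It also missed the threshold with both forms of the methods' t-test. The 2-fold criterion was missed with median centring, with no normalization, without replicate 1 (mean -0.79), with the mean of both probes (-0.77) and with the methods' t-test on log ratios. With median centring Egf alone met it.

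Lcn2 was higher by a small amount in the main scaling. Its log2 ratio was 0.34, 0.21 and 0.51 on the 3 arrays, averaging 0.35 ± 0.15 (SD, n = 3 arrays, 95% interval 0.16 to 0.55, adjusted p = 0.0178 from limma). Its only probe is printed 1 time on the array, so each of these values is that of a single spot. The probe was dim, with a net intensity of 49, 50 and 43.5 in the control and 166, 70 and 128 in G200, and the offset lowers its ratio too. With an offset of 0 the mean was 0.64, and in the ratio computed by Feature Extraction it was 0.92. Relative to all genes it was 0.40 after loess and 0.36 after median centring. Without replicate 3 the mean was 0.28 and the call was lost (adjusted p = 0.138 from limma, range over the alternatives 0.00847 to 0.162), as it was with both forms of the methods' t-test.

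Clu was lower, with log2 ratios of -0.20 on replicate 1, -0.47 on replicate 2 and -0.20 on replicate 3, averaging -0.29 ± 0.16 (SD, n = 3 arrays, adjusted p = 0.0353 from limma). Its 10, 10 and 8 spots used had SDs of 0.0737, 0.055 and 0.091, and replicate 2 lay below the others by more than that. This direction depended on the scaling: relative to all genes the ratio was -0.24 after loess and 0.08 after median centring. The call was lost without replicate 2 (mean -0.20, adjusted p = 0.0924 from limma) and without replicate 3 (mean -0.34, adjusted p = 0.119). It was also lost with an offset of 0 (0.0689), with the Feature Extraction ratio (0.112) and with both forms of the methods' t-test (0.193 and 0.218). Without normalization between the dyes the plain ratio of Clu was 0.70 and passed as higher (adjusted p = 0.0401 from limma). Over all 15 alternatives, with both directions included, the adjusted p ran from 0.0307 to 0.218.

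Timp1, Vcam1, Vim and Spp1 did not pass the test. The log2 ratio of Timp1 was 0.34, 0.05 and 0.61, averaging 0.33 ± 0.28 (adjusted p = 0.0613 from limma), and without replicate 2 the mean was 0.48 and passed (adjusted p = 0.0262, range over the alternatives 0.00744 to 0.355), whereas without replicate 3 it was 0.19 (adjusted p = 0.314). Vcam1 gave 0.16, 0.04 and 0.36 with a mean of 0.19 ± 0.16, and its 95% interval ran from -0.01 to 0.39. Vim gave 0.13, -0.06 and 0.22 with a mean of 0.10 ± 0.14 (95% interval -0.09 to 0.29). The Vim probe was dim (net intensity of 57.6, 56.2 and 56.1 in the control), and the offset lowers its ratio. Its mean was 0.17 with an offset of 0 and 0.27 in the Feature Extraction ratio, and it passed in neither. Spp1 was on opposite sides of 0 on different arrays, with -0.18, -0.00 and 0.35 and a mean of 0.05 ± 0.27 (95% interval -0.21 to 0.32). Relative to all genes Timp1 was at 0.38 after loess and 0.56 after median centring, Vcam1 at 0.24 and 0.50, Vim at 0.15 and 0.11 and Spp1 at 0.10 and 0.55, and with median centring Timp1, Vcam1 and Spp1 passed.

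**Figure D2:**
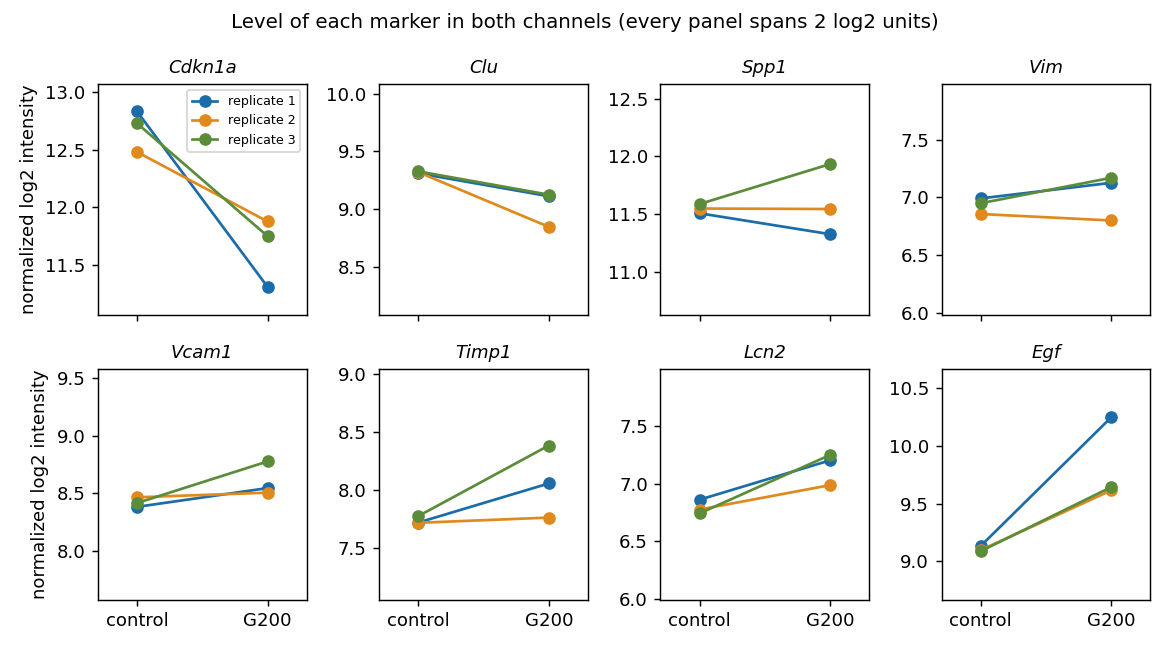
Normalized log2 intensity (y axis) of the 8 markers in the control and in G200 (x axis), with 1 line for each array and panels that span 2 log2 units each. The control levels of Egf lie between 9.09 and 9.13 and its G200 levels between 9.62 and 10.25, whereas the 3 lines of Spp1 run in different directions. The control was counted as 1 sample, so its narrow range is not read as a spread between rats.

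Havcr1 was not tested. Its only probe was well above background in the control on 1 array and in G200 on none, with net intensities of 19, 21 and 24 in the control and -1, -2 and 16 in G200, so no fold is given. Of Sox9 no probe was matched.

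**Figure D3:**
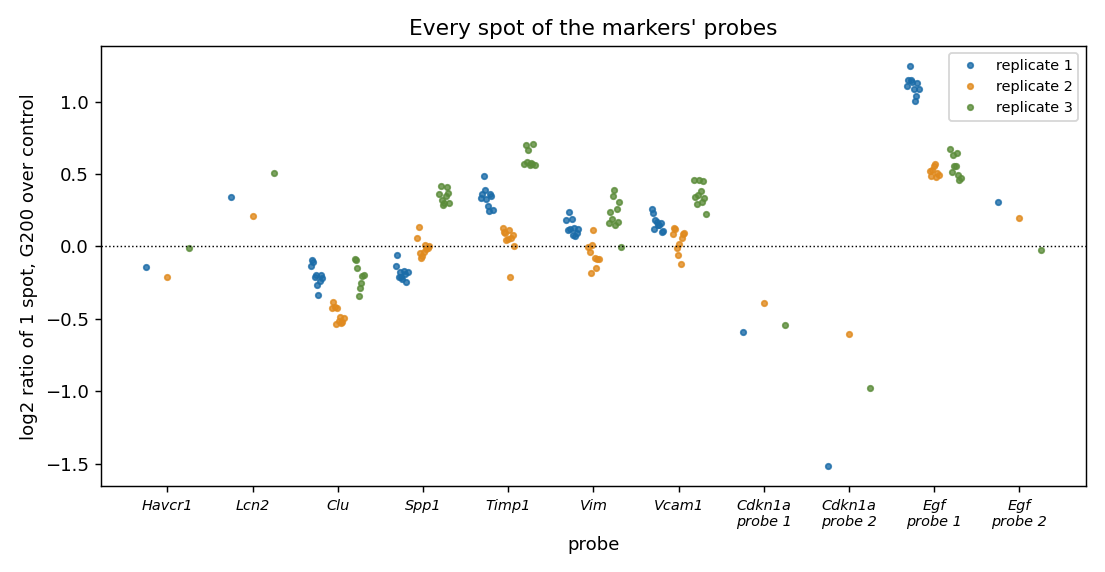
Log2 ratio of every single spot (y axis) of the 11 probes (x axis), coloured by array. The probes used in the test are Cdkn1a probe 2 and Egf probe 1. The 10, 8 and 9 spots used of the Egf probe lie close together within each array, with a mean of 1.11 on replicate 1 and 0.52 and 0.56 on the others.

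Promoter sequences are printed for Egf, Cdkn1a and Lcn2 so that the genes with the largest rise and fall in the main scaling, and the indicator of acute damage among them, can be set side by side. RefSeq promoters of the build GRCr8, running from 250 bases before to 50 after the start of the gene, were found for 8 of the 10 markers. They lie at chr2:220976248-220976547 on the minus strand for Egf, at chr20:7150682-7150981 on the plus strand for Cdkn1a and at chr3:36081731-36082030 on the minus strand for Lcn2.
Egf: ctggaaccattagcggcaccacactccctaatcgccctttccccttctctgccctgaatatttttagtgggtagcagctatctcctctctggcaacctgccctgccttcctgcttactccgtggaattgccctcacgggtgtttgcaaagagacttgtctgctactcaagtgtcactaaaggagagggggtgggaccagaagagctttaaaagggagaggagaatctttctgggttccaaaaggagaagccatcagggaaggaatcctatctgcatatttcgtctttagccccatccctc
Cdkn1a: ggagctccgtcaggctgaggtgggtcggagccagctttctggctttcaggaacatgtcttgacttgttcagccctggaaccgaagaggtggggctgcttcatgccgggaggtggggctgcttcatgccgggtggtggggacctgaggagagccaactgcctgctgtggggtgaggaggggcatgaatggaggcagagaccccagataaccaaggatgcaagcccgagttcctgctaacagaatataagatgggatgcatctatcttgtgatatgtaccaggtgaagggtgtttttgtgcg
Lcn2: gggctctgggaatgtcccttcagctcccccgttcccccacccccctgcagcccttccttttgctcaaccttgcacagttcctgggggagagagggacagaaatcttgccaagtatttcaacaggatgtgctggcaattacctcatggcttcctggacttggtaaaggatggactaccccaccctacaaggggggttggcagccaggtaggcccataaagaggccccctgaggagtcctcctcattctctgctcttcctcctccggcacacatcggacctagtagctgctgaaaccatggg
Searched on both strands, a TATAAA motif is held by 14.2% of the 33469 promoters of the table, a GGGCGG box by 33.1%, a CCAAT box by 37.5% and a TGACTCA motif by 4.63%, and no match to any of them was found in these 3 windows.

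The counts in the lists of related genes below are to be read beside the shares of all genes, which were 11.5% higher and 25.9% lower after loess and 35.2% higher and 8.79% lower with median centring, and no list was tested against them. Of the 3678 genes called lower, 371 were not well above background in G200 on any array and entered the test only through the control, and 35 of the 1638 called higher entered only through G200.

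Other genes known from the injured tubule were divided. Of a list of 47, 41 were tested, and 7 rose and 16 fell (limma, adjusted p under 0.05), with a median of -0.14 against -0.05 over all genes. With median centring the list lay on the other side of all genes (0.41 against 0.27). Of the 16, 2 (Krt20 and Pax2) entered only through the control. The largest rises were in Tff3, a trefoil peptide of epithelial repair (0.90, 0.52 and 1.10; mean 0.84 ± 0.30), and Cxcl10, an interferon-induced chemokine (0.86, 0.43 and 0.76; mean 0.68 ± 0.22). The largest falls were in Fabp1, a fatty acid binding protein (-2.25, -3.85 and -5.31; mean -3.80 ± 1.53), and Fgb, a fibrinogen chain (-1.91, -3.44 and -4.61; mean -3.32 ± 1.35). With median centring 17 were higher and 8 lower, against 35.2% and 8.79% of all genes.

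The fall of Fabp1 and Fgb came with that of liver genes. Of 28 liver markers tested, 27 fell (25 of 26 without Fga and Fgb, which are in both lists), with a median of -2.99 and with -1.59, -3.14 and -4.06 on replicates 1, 2 and 3. The largest falls were in Apoc1 (mean -4.05 ± 1.67) and Rup2 (mean -3.93 ± 1.89), and 24 of the 28 were lower with median centring. The 6 genes of plasma proteins or liver among the injury markers (C3, Cp, Fga, Fgb, Fgg and Fabp1) had medians of -1.48, -2.72 and -3.79 on the same arrays. Without these 6, a split chosen after seeing the data, 7 of 35 were higher and 10 lower, with a median of -0.08, and the largest fall was in Krt18, an epithelial keratin (mean -1.24 ± 0.11). Clu, which liver also expresses, was lowest on replicate 2 and not on replicate 3. The part of liver RNA in these ratios was not tested, and in bulk tissue fewer cells of a type and less RNA per cell cannot be told apart.

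Among the partners of Timp1, Mmp2, a gelatinase, rose with 0.74, 0.34 and 0.96 and a mean of 0.68 ± 0.31 (adjusted p = 0.00849 from limma). The membrane-bound proteases Mmp15 (mean -0.42 ± 0.30) and Mmp14 (mean -0.25 ± 0.13) were lower, although relative to all genes they were at 0.051 and 0.040 with median centring. These were 1 higher and 2 lower of 7 genes tested in a list of tissue inhibitors and matrix proteases, and with median centring 1 was higher and none lower.

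The receptors and partners of the secreted and surface markers gave 3 higher and 2 lower of 11 tested (45.5% called, against 37.5% of all genes), and 5 higher and none lower with median centring. Itgb5 and Itgb6, integrin chains whose dimers bind osteopontin, had means of 0.41 ± 0.17 and 0.32 ± 0.11. Egfr, the receptor of Egf, was lower (-0.31, -0.53 and -0.61; mean -0.48 ± 0.15; adjusted p = 0.00715 from limma), and Timd2, a gene of the Havcr1 family, had a mean of -0.43 ± 0.24. Relative to all genes Egfr remained below 0 under median centring, at -0.35, and Timd2 at -0.20.

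None of the 7 other EGF family and ErbB genes tested was higher and 3 were lower (42.9% called, against 37.5% of all genes), with a median of -0.14, while with median centring 1 was higher and none lower. The list's median relative to all genes was -0.09 after loess, -0.35 with median centring and -0.52 with the Feature Extraction ratio. The largest fall was that of Errfi1, an inhibitor of Egfr signalling, with -0.52, -1.05 and -1.42 and a mean of -1.0 ± 0.46 (adjusted p = 0.00657 from limma). Relative to all genes its ratio was -0.95 after loess and -0.57 after median centring. The other lower genes, named here after their values were seen, were Egfr and the ligand Tgfa (mean -0.46 ± 0.09). Errfi1 and Egfr, but not Tgfa, were lowest on replicate 3 and least low on replicate 1. The liver list had the same order, with medians of -1.59, -3.14 and -4.06 on replicates 1, 2 and 3. The part of liver RNA in the ratios of Errfi1 and Egfr was not tested.

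Beside Cdkn1a, a brake on the cell cycle, proliferation genes were examined. Of 12 tested, 4 were higher and 1 was lower (41.7% called, against 37.5% of all genes), with a median of 0.12, and with median centring 6 were higher and none lower. Rrm2, a ribonucleotide reductase subunit (mean 0.43 ± 0.10), and Pcna, the sliding clamp of DNA replication (mean 0.41 ± 0.17), rose most, and Mki67, a nuclear protein of cycling cells, had a mean of -0.23 ± 0.08.

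Beside Vim, 2 of 19 intermediate filament, actin and mesenchymal genes were higher and none was lower, and 9 were higher with median centring. They were Pdgfra, a growth factor receptor of fibroblasts (mean 0.45 ± 0.15), and Cdh6, a cadherin of the tubule (mean 0.26 ± 0.11). With no probe matched to Sox9, 16 other SOX and nephron progenitor factors were tested, of which 1 was higher and 6 lower (Pax2 only through the control, as above), against 3 higher and 1 lower with median centring. The largest falls were in Pax8 (mean -0.37 ± 0.23) and Sox5 (mean -0.36 ± 0.05), and with median centring the ratio of Pax8 relative to all genes was 0.0089.

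Genes of the segments that make Egf were examined next. Umod (uromodulin), a secreted protein of the thick ascending limb, rose with 0.98, 0.81 and 0.82 and a mean of 0.87 ± 0.10 (adjusted p = 0.00101 from limma). Of 14 genes of the thick ascending limb and distal convoluted tubule, 4 were higher and 2 lower, with a median of 0.14, and with median centring 8 were higher and none lower. Slc12a3, the sodium chloride carrier of the distal convoluted tubule, gave 1.23, -0.00 and -0.20 and so was high on replicate 1 alone, the array on which Egf was also highest. Slc12a1, the carrier of the thick ascending limb, had a mean of -0.18 ± 0.11 and did not pass. The part of the sampled segments in the ratio of Egf was not tested.

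The proximal tubule, where Havcr1 appears after injury, gave 3 higher and 4 lower of 19 tested, with a median of 0.06, and 12 higher and none lower with median centring (against 35.2% and 8.79% of all genes). Its largest fall was in Cyp2e1, a cytochrome that liver also makes, with -0.41, -1.63 and -1.72. Slc34a1, the phosphate carrier of this segment, had a mean of -0.06 ± 0.19. Relative to all genes it was at -0.008 after loess and 0.49 after median centring, which leaves the change with brightness in.

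**Figure D4:**
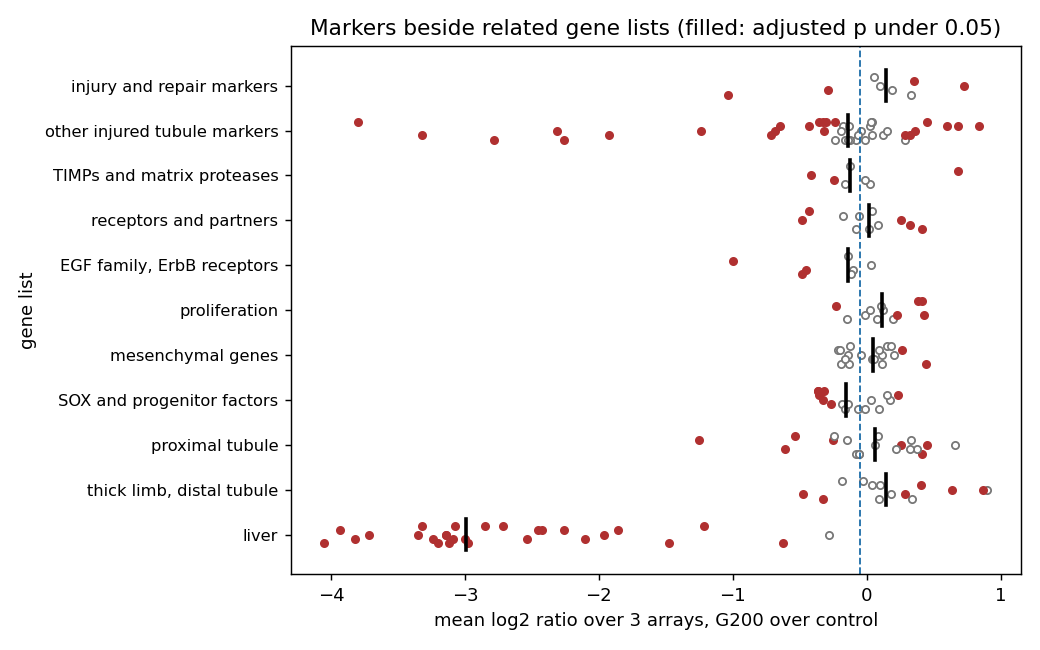
Mean log2 ratio of G200 over control (x axis) for the genes of the 8 markers and 10 related lists (y axis). Each point is a gene, filled where the adjusted p was under 0.05, the black line is the list's median and the dashed line the median of all genes (-0.05). The liver list lies far to the left at -2.99, together with 6 of the other injured tubule markers.

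**Figure D5:**
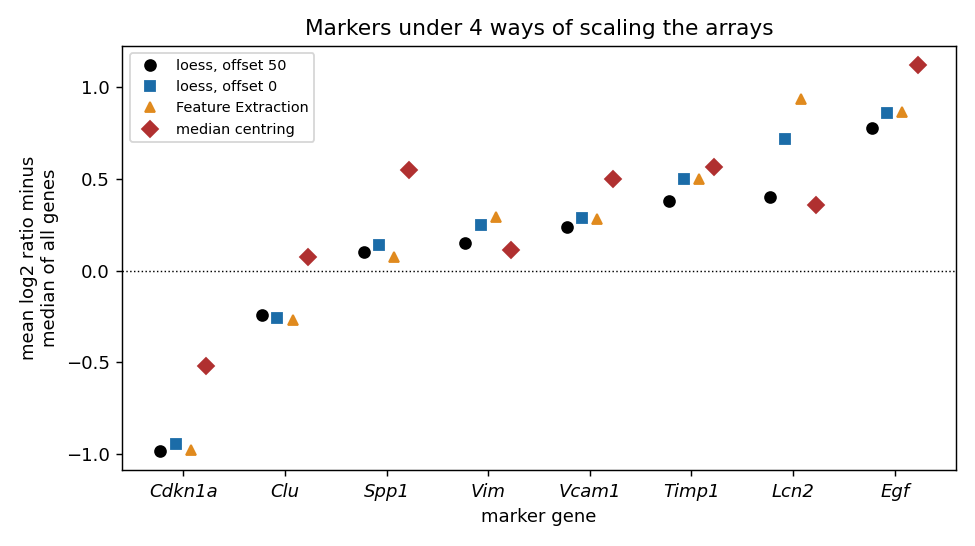
Mean log2 ratio minus the median of all genes (y axis) for the 8 markers (x axis) under 4 ways of scaling the arrays. Under all 4, Cdkn1a lies below 0, and Egf, Lcn2, Timp1, Vcam1, Vim and Spp1 lie above 0. Clu lies at -0.24 after loess and at 0.08 after median centring.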

How the data were processed

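Kidney RNA of G200 and control rats was measured on 3 two-colour Agilent arrays on 1 slide, scanned 1 time. The authors extracted spot intensity with Agilent Feature Extraction (11.5.1.1 in the file headers, 9.3.2.1 in the submitters' processing notes, and another version in the study's methods), and the deposited files also hold its log10 ratio of red over green, used as an alternative. Median signals and backgrounds were corrected with normexp (offset 50) and normalized by loess within arrays in limma 3.58.1 (R 4.3.3), with control and outlier spots left out and the spots of a probe averaged. The study's methods name average spot intensity, whereas median signals were used here. A probe was kept if all 3 arrays showed it well above background in the green or all 3 in the red (15651 of 30367), and the brightest probe stood for its gene. RefSeq accessions named 18355 probes (60.4%); of 14183 genes tested, 8912 had a symbol. Log2 ratios were tested against 0 with lmFit and eBayes of limma, two-sided, and p-values were adjusted over every gene tested (Benjamini-Hochberg). P-values measure only the spread between 3 arrays. The 2-fold criterion was an unadjusted p under 0.05 and a 2-fold ratio. Only the limma fit was tested on simulated data, in which log ratios were drawn gene by gene with no error shared within an array. Background correction, dye normalization, the filter and the choice of probe were not simulated. Named genes were all markers and, from each list, genes past the threshold with a log2 ratio of at least 0.8 in size, or else (none, or over 6) the 2 largest rises and 2 largest falls, with kidney and liver genes as tissue checks. A few genes and lists are not reported here. The members and lists were chosen with earlier results of these data known. Alternatives covered background, scaling, filter, probe rule, replicates and test.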

Additional observations from a re-analysis of the deposited data

How the results depend on the processing

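Over 15 alternatives the markers kept their direction and side of the threshold in 94 of 120 values. This count is no measure of how stable the directions are. The alternatives that changed only the test, the variance model or the filter left every marker's ratio as it was, so no direction could change there. With median centring 5 markers were higher and 0 lower, Spp1, Timp1 and Vcam1 passed at 0.82, 0.83 and 0.77, Clu turned to 0.35, Cdkn1a (-0.25) no longer passed, and the markers' median was 0.70. Without dye normalization 8314 genes passed, 7 markers were higher and 0 lower, and 4 met the 2-fold criterion. There Spp1, Timp1, Vim and Vcam1 passed at 1.17, 1.18, 0.73 and 1.12, Clu passed as higher at 0.70, Cdkn1a was 0.10 and the markers' median 1.05. With offset 0 Clu (-0.33) missed the threshold and 1 marker was lower; with the Feature Extraction ratio Clu (-0.29) missed it and 1 was lower. With the mean of a gene's probes Cdkn1a was -0.77 and 0 markers met the 2-fold criterion. Run on log ratios, the methods' t-test called 2 genes after Benjamini-Hochberg (4475 unadjusted), with 0 markers higher, 0 lower and 0 past the 2-fold criterion; on the 2 channels it called 337 (4178 unadjusted), with 0 higher and 0 lower, and 2 markers (Lcn2 and Cdkn1a) unadjusted. In both, Lcn2 (0.35), Clu (-0.29), Cdkn1a (-1.03) and Egf (0.73) missed the threshold. Leaving out 1 replicate gave 1612 (without replicate 3) to 4972 genes, 1 to 3 markers higher, 1 to 2 lower, 0 to 1 past the 2-fold criterion, a median of 0.07 to 0.22, and ranges of 0.28 to 0.42 for Lcn2, -0.34 to -0.20 for Clu, -0.092 to 0.17 for Spp1, 0.19 to 0.48 for Timp1, 0.10 to 0.26 for Vcam1, 0.04 to 0.18 for Vim, -1.25 to -0.79 for Cdkn1a and 0.54 to 0.83 for Egf. A separate channel fit with no replicate block called 4095 genes and changed no marker's call, but it and the methods' t-test on the 2 channels take the 3 green channels as 3 control samples, so this agreement is no check. The causes were not tested. Medians of the lists moved by more than the spread between arrays in 65 of 198 values. Slide as a block was not run, since all arrays lie on 1 slide. Signal over background limits Havcr1 (not well above background in G200) and the sizes of Lcn2 and Vim.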

Other observations

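Several genes stood high on replicate 1 alone, and they were picked after their values were seen. Klk1, the tissue kallikrein of the distal tubule, gave 2.60, -0.11 and 0.21 on replicates 1, 2 and 3, and Slc5a2, the glucose carrier of the proximal tubule, 1.59, 0.16 and 0.22. The podocyte genes Ptpro (1.70, 0.33 and 0.33) and Wt1 (1.16, 0.16 and 0.28) showed the same order. None of these 4 passed the threshold, and the reason for the higher array was not tested.

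Immune and vascular lists are given without a test against the share of all genes called (37.5%). Of 13 macrophage genes, 2 were higher and 1 was lower, against 5 and 0 with median centring: Lyz2, the lysozyme of myeloid cells, had a mean of 0.60 ± 0.26, Ctss, a lysosomal protease, 0.53 ± 0.38, and C1qb, a complement chain, -0.43 ± 0.24 (relative to all genes -0.38 after loess and -0.04 after median centring). Of 9 endothelial genes 2 were higher and 0 lower with median centring, and only Pecam1 passed after loess, with -0.61, -0.52 and -0.56, and relative to all genes it was -0.51 after loess and -0.13 after median centring. Of 4 lymphocyte genes and 1 neutrophil gene tested, none passed in limma (1 had an unadjusted p under 0.05, and 1 lymphocyte gene was called lower with the Feature Extraction ratio), and 7 and 8 genes of these lists were too dim. Of 14 genes of the thin limb, collecting duct and inner medulla, the urea transporter Slc14a2 (-1.17, -0.45 and -0.30) and the inositol carrier Slc5a3 (mean -0.36 ± 0.20, but 0.05 relative to all genes with median centring) were lower. With median centring 8 of the 14 were higher and none was lower, and the same scaling gave 35.2% and 8.79% of all genes.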
